A study of Homo sapiens with 9 samples.

Results

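The 7 genes described here encode the FOS and JUN families of activator protein 1 (AP-1): FOS, FOSB, FOSL1 and FOSL2 on one side, and JUN, JUNB and JUND on the other. They were taken by symbol from a table of 22587 genes, and all 7 were found. RNA was sequenced from HepG2, an established human liver tumor cell line, in 3 groups of 3 libraries: cells in normal medium with glutamine (Gln added), cells without Gln for 12 h, and cells without Gln for 24 h. All groups had been grown in high-glucose DMEM with serum, and the deprived cells were moved to Gln-free DMEM 24 h after seeding. GlutaMAX, a dipeptide that replaces free Gln in media, is labelled as the treatment of the normal-medium cultures, whereas the treatment protocol and the methods put it into the deprivation medium. No source says whether the 3 libraries of a group came from separate cultures, so the p-values measure the spread between these libraries, which may be technical.

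Values are FPKM, that is, fragments scaled to gene length and library depth. A library held 29621270 to 36261546 fragments on genes. All 12 hepatocyte markers checked were above 1 FPKM, and their sum was 12033 to 12072 FPKM with Gln, 10645 to 11086 FPKM after 12 h and 11027 to 11708 FPKM after 24 h. By limma 2 of them were called higher and 7 lower at 12 h (29.1% and 31.0% of all genes tested), and 1 higher and 6 lower at 24 h (33.0% and 31.7% of all), the largest of these changes being in fibrinogen (FGB, 80.3 ± 1.2, 61.0 ± 1.6 and 57.4 ± 0.88 FPKM in the 3 groups; FGA, -0.48 and -0.36 on the log2 scale), APOA1 (-0.36 and -0.41) and TF (-0.24 and -0.33). Of 10 markers of other cell types in the table (macrophages, endothelial cells and fibroblasts), 2 reached 1 FPKM in any library. They were CD14 and CD68. CD68, a lysosomal protein of macrophages and of other cells, decreased from 36.1 ± 0.19 (SD, n = 3) to 29.6 ± 1.7 at 12 h and 22.9 ± 2.5 FPKM at 24 h (log2 fold change -0.29 and -0.66, limma adjusted p = 0.00387 and 9.68e-06). The summed level of the 10 markers was 37.9 to 38.2 FPKM with Gln, 30.2 to 33.2 FPKM after 12 h and 23.0 to 27.7 FPKM after 24 h, and its part in the results below was not tested. The endothelial cadherin CDH5 and the collagen COL1A1 averaged at most 0.00723 FPKM in any group. The pericyte and fibroblast receptor PDGFRB stood at 0.156 ± 0.038, 0.385 ± 0.088 and 0.667 ± 0.094 FPKM in the 3 groups, and the endothelial PECAM1 stood at 0.286 ± 0.089, 0.136 ± 0.050 and 0.151 ± 0.034 FPKM, both too low for the test.

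AP-1 is a dimer of basic leucine zipper proteins that binds a short palindromic DNA element. JUN proteins pair with one another or with FOS proteins, whereas FOS proteins need a JUN or another zipper partner to bind DNA. FOS, FOSB, JUN and JUNB belong to the immediate early genes, which growth factors and stress switch on within minutes without new protein synthesis, and their mRNAs are short-lived. JUND is the steadily expressed member. In liver, JUN is known for its part in hepatocyte proliferation and in liver tumor formation, and MAP kinases such as JNK phosphorylate it.

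The genes lie on 5 chromosomes of GRCh38. By GENCODE v44, FOS is at chr14:75278826-75282230 (plus strand), FOSB at chr19:45467995-45475179 (plus), FOSL1 at chr11:65892049-65900573 (minus), FOSL2 at chr2:28392448-28417317 (plus), JUN at chr1:58776845-58784048 (minus), JUNB at chr19:12791486-12793315 (plus) and JUND at chr19:18279694-18281622 (minus). The families differ in structure. The MANE Select transcripts of JUN, JUNB and JUND have 1 exon each, as do 2.89% of the 15771 genes compared, and those of the 4 FOS family genes have 4 exons each. No exon of these genes is shared with a gene on the same strand, and only JUNB has exons of a gene on the opposite strand within it, those of HOOK2 over 14.15% of its bases.

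The promoters of 6 of the 7 genes were matched by symbol in RefSeq (GRCh38.p14), from 250 bases before to 50 bases from the start site on. Both strands were searched for the AP-1 element TGANTCA, the cAMP response element TGACGTCA, the variant TGACATCA and the shorter core TGACG, which the cAMP response element holds, and the given strand for the TATA box TATAAA. The core TGACG was found in all 6 promoters, against 29.64% of 16433 promoters (the first listed per gene). The variant TGACATCA was found in JUN (1.94% of promoters), TGACGTCA in JUND (2.63%) and TGACTCA, a form of TGANTCA, in FOSL2 (5.97%). TATAAA was found in FOS, FOSB and JUNB (5.31%). A match describes the letters and does not show a bound site. The promoters below are shown because FOS, JUN and FOSL2 rose after Gln removal and JUND did not, with capitals marking every match except TATAAA. They lie at chr14:75278578-75278877 (FOS, plus strand), chr1:58783998-58784297 (JUN, minus), chr2:28392608-28392907 (FOSL2, plus) and chr19:18281573-18281872 (JUND, minus).
FOS: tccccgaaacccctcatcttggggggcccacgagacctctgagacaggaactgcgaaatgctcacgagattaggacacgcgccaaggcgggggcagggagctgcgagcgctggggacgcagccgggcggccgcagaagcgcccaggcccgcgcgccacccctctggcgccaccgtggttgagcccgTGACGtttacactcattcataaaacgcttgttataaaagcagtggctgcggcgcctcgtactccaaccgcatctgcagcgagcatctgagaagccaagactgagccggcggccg
JUN: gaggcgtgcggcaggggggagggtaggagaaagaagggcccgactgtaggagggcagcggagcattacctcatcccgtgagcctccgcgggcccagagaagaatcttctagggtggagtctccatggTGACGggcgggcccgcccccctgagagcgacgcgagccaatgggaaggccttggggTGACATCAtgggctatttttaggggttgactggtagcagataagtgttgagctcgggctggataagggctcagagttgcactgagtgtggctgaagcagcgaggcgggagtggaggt
FOSL2: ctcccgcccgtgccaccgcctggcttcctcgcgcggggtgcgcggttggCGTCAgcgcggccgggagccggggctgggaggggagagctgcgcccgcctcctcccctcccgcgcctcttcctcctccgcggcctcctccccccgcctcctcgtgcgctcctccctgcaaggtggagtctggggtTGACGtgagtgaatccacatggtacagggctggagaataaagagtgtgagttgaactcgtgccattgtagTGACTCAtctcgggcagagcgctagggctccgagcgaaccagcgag
JUND: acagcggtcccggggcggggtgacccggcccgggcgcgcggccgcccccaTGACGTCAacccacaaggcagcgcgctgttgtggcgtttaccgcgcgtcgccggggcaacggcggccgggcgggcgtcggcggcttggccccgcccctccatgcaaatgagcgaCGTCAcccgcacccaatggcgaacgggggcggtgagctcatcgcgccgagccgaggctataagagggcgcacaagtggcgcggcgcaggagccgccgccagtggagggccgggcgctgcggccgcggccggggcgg
Counted from 1 at the start site, with -1 the base before it, TGACG lies at -64 to -60 and TATAAA at -33 to -28 in FOS, and TGACATCA at -67 to -60 in JUN. TGACTCA lies at 5 to 11 in FOSL2, within the transcribed part, and TGACGTCA at -200 to -193 in JUND.

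The first question was which subunits HepG2 cells express. In all 9 libraries the order of the FPKM was the same: JUND, JUN, FOSL1, JUNB, FOSL2, FOS and FOSB, and in no group did the ranges of neighbours in this order overlap. With Gln added, JUND averaged 66.4 ± 0.50 FPKM (SD, n = 3), a level that 3.89% of the genes in the table reached, and FOSB averaged 0.0797 ± 0.028 FPKM. The order depends on the gene lengths behind the FPKM. For 6 of the genes the length solved from the FPKM was that of the MANE Select transcript, but for FOSL2 it was 8787 bases against 6713. With the shorter length FOSL2 would stand at 3.06 to 3.13 FPKM with Gln added, overlapping the lower end of the 3.07 to 3.38 FPKM of JUNB. The order of these neighbours would then be undecided in that group. At 12 h and 24 h JUNB would still be the higher one, at 8.31 or more against at most 6.52 FPKM.

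**Figure D1:**
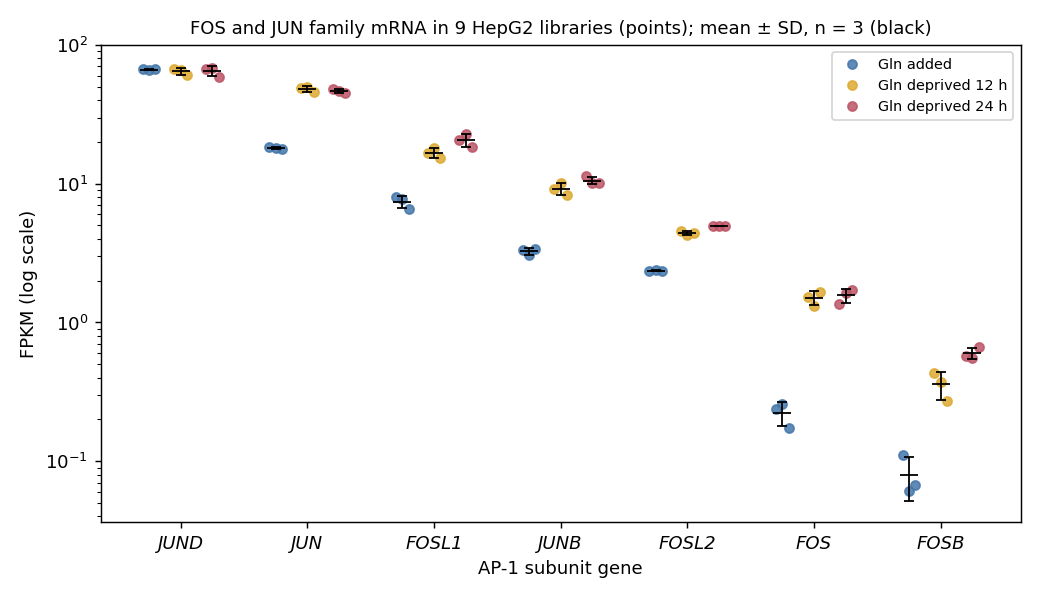
FPKM on a log axis for the 7 genes in the 9 libraries (points, 3 per group) with the group mean ± SD (black, n = 3). The 6 Gln-deprived libraries lie above the 3 with Gln added for every gene except JUND, whose groups overlap between 58.6 and 68.6 FPKM. The share of all genes separated in this way was not computed.

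The second question was how the subunits responded to Gln removal. Of the 6 genes that averaged 0.5 FPKM or more, 5 were higher at 12 h and the same number at 24 h by limma at an adjusted p under 0.05, and 0 were lower, also at an unadjusted p under 0.05. Over all 11880 genes tested, 29.1% were called higher and 31.0% lower at 12 h, and 33.0% higher and 31.7% lower at 24 h. Calls at this threshold were therefore frequent. FOS, at 0.224 FPKM with Gln added, passed the 0.5 FPKM filter only through the deprived libraries, and such a gene had to differ. Without it, 4 of 5 genes were called higher at each time. A rise of 1 or more on the log2 scale was reached by 3 of these 5 at 12 h and by 4 at 24 h, against 2.00% and 3.21% of all genes tested. The median log2 fold change of these 5 was 1.17 at 12 h and 1.37 at 24 h, and that of all genes tested was -0.019 and 0.013. Both contrasts use the same 3 libraries with Gln added, and no separate control for 12 h or for 24 h is labelled. Effects of the move to new medium and of time in culture therefore cannot be told apart from those of Gln loss. In such bulk RNA, a change in every cell and a change in some of the cells cannot be told apart.

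JUN encodes c-Jun, the subunit that gives AP-1 its strongest activation domain and, in the study, the factor tested as an activator of TRIB3. Its values were 18.3, 18.2 and 17.6 FPKM with Gln added, 48.7, 50.1 and 45.5 at 12 h, and 47.8, 46.6 and 45.4 at 24 h. All 6 deprived libraries stood far above the 3 with Gln, and those of 12 h and 24 h overlapped. The log2 fold change was 1.41 ± 0.043 (SE) at 12 h and 1.37 ± 0.043 at 24 h, with limma adjusted p = 1.56e-09 and 1.34e-09. Mean FPKM were 2.67 and 2.59 times those with Gln added. Between 24 h and 12 h the difference was -0.044 (95% interval -0.14 to 0.050, adjusted p = 0.509). With Gln, 2044 to 2123 fragments of JUN were counted in a library, and without it 4698 to 5914.

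JUNB, a weaker activator that can restrain c-Jun and is itself induced by growth factors, measured 3.32, 3.07 and 3.38 FPKM with Gln added. It measured 9.19, 10.1 and 8.31 FPKM at 12 h, and 11.3, 10.2 and 10.2 at 24 h. No deprived library was below 8.31 FPKM and none with Gln above 3.38, and the lowest of 24 h lay just above the highest of 12 h. JUNB rose by 1.47 ± 0.076 (log2, SE) at 12 h and 1.66 ± 0.076 at 24 h (limma adjusted p = 7.78e-08 and 1.86e-08). The step from 12 h to 24 h, 0.20 (95% interval 0.030 to 0.37), missed the threshold at an adjusted p of 0.0919. HOOK2, whose exons overlap JUNB on the opposite strand, measured 4.94 to 5.40 FPKM with Gln, 4.80 to 5.03 FPKM after 12 h and 4.90 to 5.92 FPKM after 24 h. Its log2 fold changes of -0.093 and 0.041 did not pass the test (adjusted p = 0.283 and 0.634). Whether the counting used strand is not settled by the sources, and the part of HOOK2 fragments in the JUNB values was not tested.

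JUND, the steadily expressed member, measured 66.8, 65.9 and 66.6 FPKM with Gln added, 66.8, 66.4 and 60.5 at 12 h, and 67.1, 68.6 and 58.6 at 24 h. The groups overlapped, and the lowest library of each deprived group was replicate 3. The log2 fold change was -0.042 (95% interval -0.17 to 0.090) at 12 h and -0.040 (-0.17 to 0.091) at 24 h, and neither passed the test (limma adjusted p = 0.565 and 0.574). On the linear scale they run from -11.3% to 6.42% and from -11.2% to 6.54%. With 3818 to 4647 fragments per library, counting error was 1.48% to 1.54% of the value, more than the spread of 0.747% with Gln added and less than that of 5.46% at 12 h and 8.30% at 24 h.

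FOS encodes c-Fos, the classic immediate early subunit and the partner with which c-Jun forms a stable dimer. It was barely expressed with Gln, at 0.240, 0.258 and 0.174 FPKM. It stood at 1.52, 1.32 and 1.66 FPKM at 12 h and at 1.37, 1.64 and 1.70 at 24 h. The lowest deprived library was 5.12 times the highest with Gln added, and the ranges of 12 h and 24 h overlapped. On the log2(FPKM + 0.1) scale the change was 2.31 ± 0.15 (SE) at 12 h and 2.37 ± 0.15 at 24 h (limma adjusted p = 4.2e-07 and 2.3e-07). That scale understates the change of a gene this low, for the mean FPKM was 6.71 and 7.02 times as high. FOS passed the 0.5 FPKM filter only through the deprived libraries, so it had to differ in the filtered fit. When limma was fitted without the filter, its adjusted p was 9.55e-06 at 12 h and 5.72e-06 at 24 h. Counts were small, with 18, 19 and 13 fragments in the libraries with Gln added and 95 to 126 in the deprived ones.

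FOSB, whose protein can pair with JUN proteins as c-Fos does, was the lowest of the 7 and did not reach the mean of 0.5 FPKM needed for the test. Its values were 0.111, 0.0607 and 0.0670 FPKM with Gln added, 0.429, 0.373 and 0.272 at 12 h, and 0.577, 0.558 and 0.661 at 24 h. The 3 groups were in rising order with no overlap. These values rest on 15, 8 and 9 fragments with Gln added, 48, 51 and 37 at 12 h, and 78, 70 and 87 at 24 h. When limma was fitted without the filter, FOSB was higher by 1.35 ± 0.18 (log2, SE) at 12 h and 1.97 ± 0.18 at 24 h (adjusted p = 0.000565 and 4.53e-05). The 24 h value lay 0.62 above that of 12 h (95% interval 0.20 to 1.04, adjusted p = 0.0813). With limma's voom on the recovered fragments, also unfiltered, the changes were 2.13 and 2.90, and the step between the times was 0.77 (adjusted p = 0.0489).

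FOSL1 encodes Fra-1, a FOS protein without the long activation domain of c-Fos and itself a target of AP-1. It measured 7.98, 7.74 and 6.56 FPKM with Gln added, 16.7, 18.2 and 15.4 at 12 h, and 20.5, 22.8 and 18.5 at 24 h. The 3 groups did not overlap, although the lowest library of 24 h was only 0.35 FPKM above the highest of 12 h. FOSL1 rose by 1.17 ± 0.094 (log2, SE) at 12 h and 1.46 ± 0.094 at 24 h (limma adjusted p = 2.03e-06 and 2.41e-07). It was the most abundant FOS family mRNA in every library. FOSL1 mRNA was 3.15 ± 0.32 times as abundant per length as FOSL2 in cells with Gln, 3.79 ± 0.41 times after 12 h and 4.15 ± 0.44 times after 24 h (SD, n = 3).

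FOSL2 encodes Fra-2, the second of the FOS proteins without a strong activation domain. Its libraries lay close together, at 2.34, 2.39 and 2.35 FPKM with Gln added, 4.58, 4.27 and 4.45 at 12 h, and 4.98, 4.97 and 4.98 at 24 h. The groups were in rising order with no overlap. FOSL2 increased by 0.88 ± 0.053 (log2, SE) at 12 h and 1.05 ± 0.053 at 24 h (limma adjusted p = 2.33e-07 and 4.21e-08), the smallest rise among the 5 called genes at both times. The spread at 24 h, 0.156% of the mean, was below the 2.57% that counting error alone gives for 1452 to 1568 fragments.

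**Figure D2:**
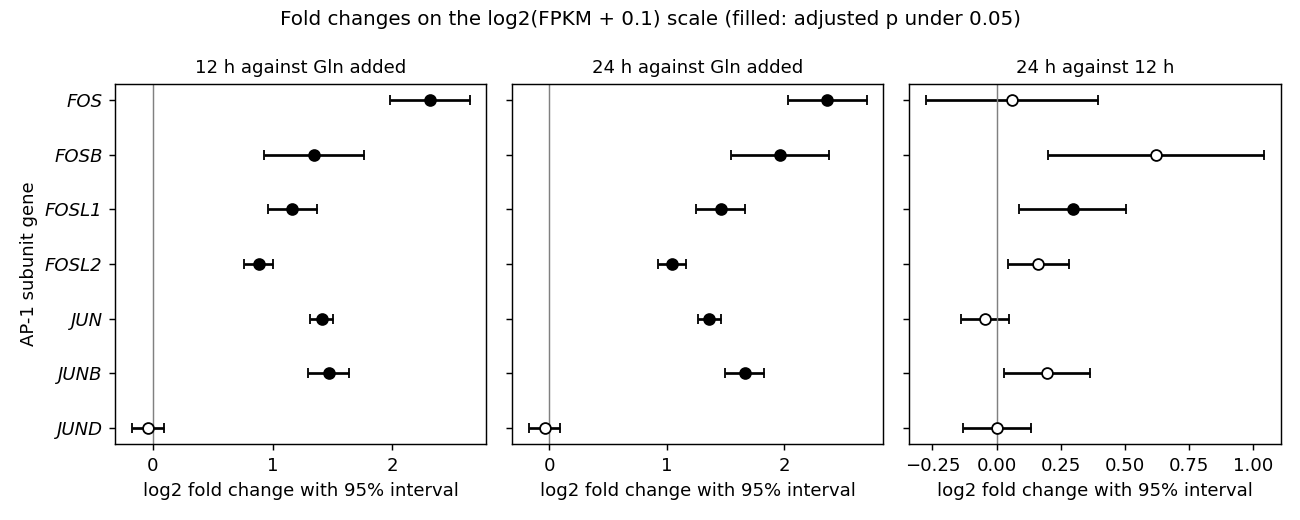
Log2 fold changes with 95% intervals for the 7 genes in the 3 comparisons, from limma on log2(FPKM + 0.1), with FOSB taken from the fit without the filter and filled points at an adjusted p under 0.05. At 12 h and 24 h every interval except that of JUND lies above 0, and from 12 h to 24 h the point of FOSL1 is the only filled one.

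The third question was whether the response went on between 12 h and 24 h. By limma, 1 of the 6 tested genes, FOSL1, was called higher at 24 h than at 12 h, against 9.57% of all genes tested called higher and 10.5% called lower. At an unadjusted p under 0.05 it was 3 of the 6, with FOSL2 and JUNB, and 0 were lower by either threshold. The FOSL1 difference was 0.30 on the log2 scale (95% interval 0.089 to 0.50, adjusted p = 0.0481), at the edge of the threshold. Its adjusted p was 0.119 when no genes were filtered out. It was 0.0553 to 0.146 without replicate 1 or 2 of Gln added, replicate 1 or 3 of 12 h, or replicate 1 or 2 of 24 h. With a term for the replicate number it was 0.00377, and with voom on the recovered fragments 0.0201. Over the main fit and 20 alternatives it was under 0.05 in 11. FOSL2 followed with 0.16 (0.045 to 0.28, adjusted p = 0.0543), and it passed with limma's voom on the recovered fragments (adjusted p = 0.0239). FOS differed by 0.060 (-0.27 to 0.39, adjusted p = 0.817) and JUND by 0.0016 (-0.13 to 0.13, adjusted p = 0.988). In exact permutation tests of 3 libraries against 3 (two-sided), the 5 called genes and FOSB reached p = 0.1 at both times against Gln added, which is the smallest p that design allows. Between 24 h and 12 h FOSB, FOSL1, FOSL2 and JUNB reached that p of 0.1 and JUN, FOS and JUND did not. A p of 0.1 here means only that the 3 libraries of each group did not overlap. The share of all genes that reach it was not computed, so these counts show nothing particular to AP-1.

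**Figure D3:**
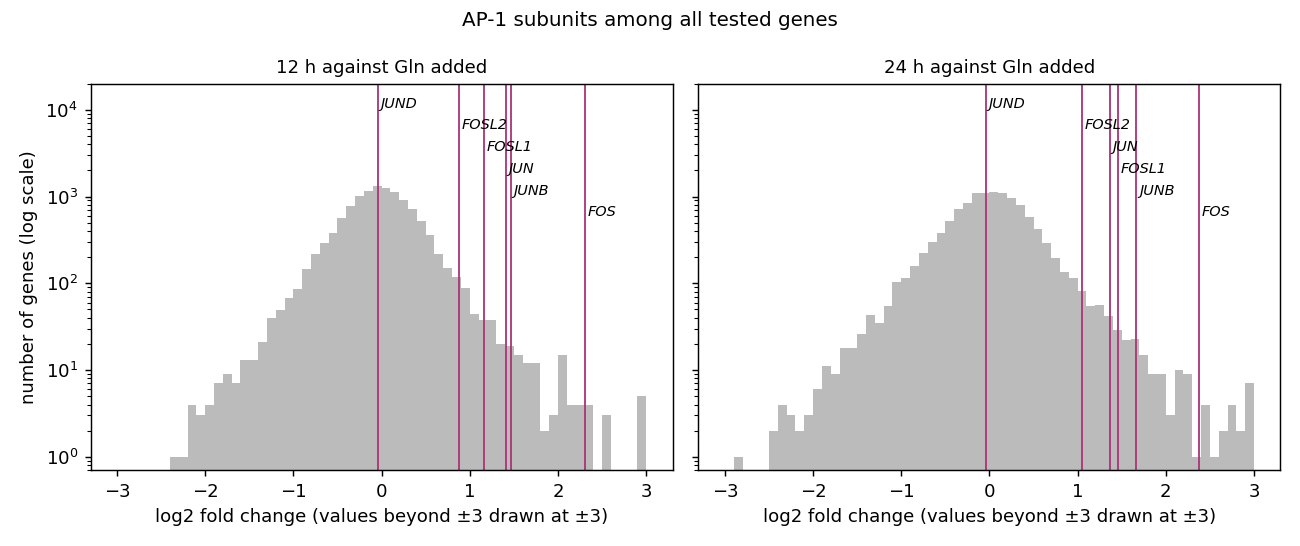
Number of genes (log axis) by log2 fold change at 12 h and at 24 h over the 11880 genes tested, with the 6 tested AP-1 genes as vertical lines. JUND lies at the center of both distributions and the other 5 in the upper tail (FOS passed the filter only through the deprived libraries), where 2.90% of genes or fewer at 12 h and 2.95% or fewer at 24 h reach their values.

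The share of each of the 7 genes in their summed FPKM differed between Gln added and both deprived groups without overlap. A share falls when those of the other genes rise, so the 7 shares are not independent. The share of JUND fell although its own FPKM overlapped between the groups. Whether other sets of genes separate in this way was not computed. The summed FPKM of the 7 genes reached 97.8 ± 1.1 in cells with Gln, 145 ± 7.8 after 12 h and 150 ± 8.4 after 24 h (SD, n = 3). JUND made up 67.9% ± 0.78 of this sum in cells with Gln, 44.6% ± 0.55 after 12 h and 43.2% ± 1.2 after 24 h. JUN went from 18.4% ± 0.19 to 33.2% ± 0.25 at 12 h and stood at 31.2% ± 1.2 at 24 h. The ratio of JUN to JUND was 0.265 to 0.276 with Gln added, and 0.679 to 0.774 over the 6 deprived libraries. The FOS family held 10.3% ± 0.75 of the sum in cells with Gln, 15.9% ± 0.18 after 12 h and 18.6% ± 0.73 after 24 h, with no overlap between the 3 groups. FOSL1 carried most of that share, with 7.59% ± 0.71, 11.6% ± 0.43 and 13.8% ± 0.82 of the sum. FOS itself, the tested gene with the largest log2 fold change, made up 0.229% ± 0.044 with Gln added and 1.05% ± 0.16 at 24 h. These shares describe mRNA per length and not protein, and no test was run on them.

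**Figure D4:**
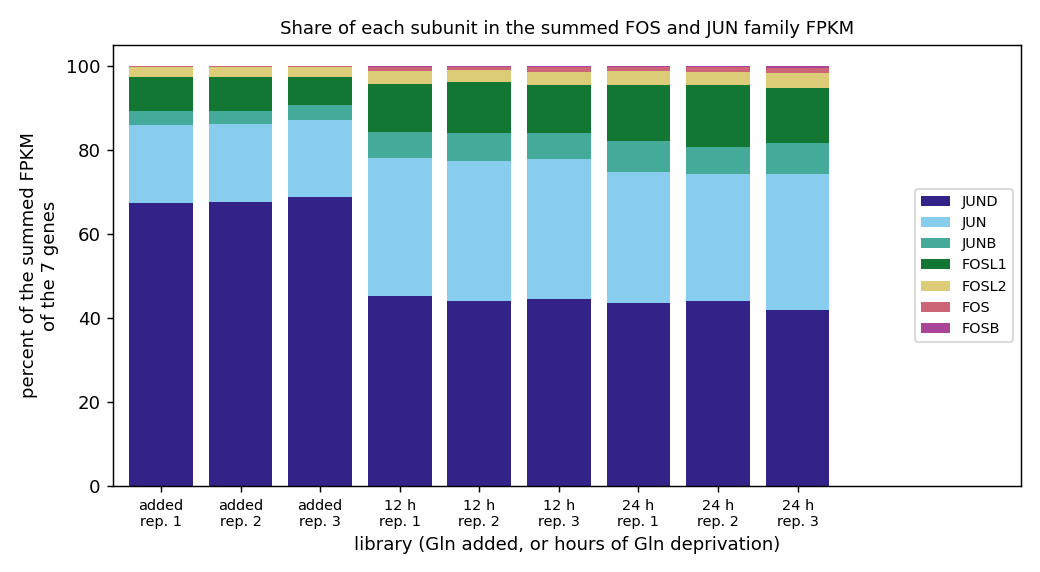
Percent of the summed FPKM of the 7 genes that each gene held, in stacked bars for the 9 libraries. The share of JUND falls from 67.4% to 68.8% with Gln added to 41.8% to 45.2% without Gln, although its own FPKM overlapped between the groups. JUN and FOSL1 take up most of the difference in share.

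Other zipper proteins can pair with FOS or JUN. From a list of 14 such partners, 11 were tested, and 8 were called higher and 0 lower at 12 h (9 and 0 at an unadjusted p under 0.05), against 29.1% and 31.0% of all genes tested. At 24 h 9 were called higher and 1 lower, against 33.0% and 31.7%. The list medians were 0.88 and 1.02 on the log2 scale. The small MAF protein MAFF, which has no activation domain, rose from 1.96 ± 0.25 to 8.27 ± 0.022 FPKM at 12 h and 9.38 ± 0.59 at 24 h (log2 fold change 2.03 and 2.21, limma adjusted p = 1.71e-08 and 5.29e-09). ATF3, a stress-induced partner of JUN proteins, rose from 1.86 ± 0.15 to 5.86 ± 0.23 and 5.59 ± 0.39 FPKM. JDP2, a partner that represses AP-1 and that passed the filter only through the deprived libraries, rose from 0.461 ± 0.059 to 1.38 ± 0.15 and 1.46 ± 0.083 FPKM. Without it, 7 of 10 partners were called higher at 12 h and 8 of 10 at 24 h. BATF, best known in lymphocytes, rose by 1.20 and 1.63 on the log2 scale, with an SD of 1.2 FPKM around a mean of 3.40 at 12 h. The gene called lower at 24 h was ATF2, the partner with which JUN binds TGACATCA, at 31.1 ± 2.3 FPKM with Gln added and 26.8 ± 3.2 at 24 h (log2 fold change -0.22, adjusted p = 0.0436), and it was named after its value was seen. That call was lost (adjusted p = 0.0516 to 0.15) without replicate 1 or 3 of Gln added, replicate 1 or 2 of 12 h or replicate 1 of 24 h, and likewise with no filter, with FPKM rescaled to the same total, with only the groups compared and with eBayes without a trend. Without replicate 1 of 24 h, 1 partner was called lower at 12 h.

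Among the kinases upstream of AP-1, mRNAs were called in both directions. Of 20 tested genes of the MAP kinase cascade, 4 were called higher and 5 lower at 12 h (29.1% and 31.0% of all genes tested), and 7 higher and 6 lower at 24 h (33.0% and 31.7% of all), with list medians of 0.007 and -0.022. After rescaling the FPKM to the same total, 7 were called higher at 12 h. MAP2K6, a kinase upstream of p38, fell from 2.83 ± 0.22 to 1.41 ± 0.049 and 1.26 ± 0.0045 FPKM. MAPK3, which encodes ERK1, fell from 34.0 ± 0.74 to 23.6 ± 1.2 and 21.5 ± 1.4 FPKM. MAP2K7, an activator of JNK, rose from 4.62 ± 0.32 to 6.55 ± 0.41 and 7.04 ± 0.29 FPKM, and MAPK13, a p38 isoform, from 7.31 ± 0.14 to 9.83 ± 0.40 and 10.7 ± 0.99. The mRNA of a kinase says nothing of its activity, which was not measured here.

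Factors known to act on the FOS and JUN promoters were called in both directions. Of 15 tested, 9 were higher and 1 lower at 12 h, against 29.1% and 31.0% of all genes tested, and 10 higher and 1 lower at 24 h, against 33.0% and 31.7%, with list medians of 0.38 and 0.34. The lower call at 24 h was lost when any library with Gln added or replicate 1 of 24 h was left out. The largest changes were in MEF2D, a MADS-box factor that binds the JUN promoter, from 1.16 ± 0.043 to 2.19 ± 0.12 and 2.40 ± 0.049 FPKM, and in CRTC2, a coactivator of CREB, from 6.94 ± 0.87 to 10.6 ± 1.3 and 11.6 ± 0.72. MEF2A rose by 0.54 and 0.62, and MRTFA, a coactivator of SRF, by 0.51 and 0.52 on the log2 scale.

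FOS and JUN mRNAs carry AU-rich elements, which proteins such as ZFP36 bind to speed decay. The pentamer ATTTA occurred 5 times in the 806 bases of the FOS 3′ untranslated region (6.20 per kb, a density that 4.8% of 15088 genes reached) and 2 times in the 500 bases of JUNB (4.0 per kb, 15.3%). JUN had 2.34 per kb, FOSL2 1.85, FOSB 1.38, JUND 1.34 and FOSL1 1.19, around the median of 1.66 over those genes. Of 11 tested genes for the turnover of AP-1 mRNAs or proteins, 5 were called higher at each time (29.1% and 33.0% of all genes tested), with 1 lower at 12 h and 2 lower at 24 h (31.0% and 31.7% of all). The lower call at 12 h was lost when any library with Gln added or replicate 1 or 3 of 12 h was left out. ZFP36L1 rose from 17.6 ± 0.40 to 28.7 ± 0.45 and 29.4 ± 2.8 FPKM, and ZFP36 from 3.73 ± 0.097 to 5.69 ± 0.48 and 6.47 ± 0.67. ZFP36L2 rose by 0.28 and 0.18, and ITCH, a ubiquitin ligase for JUN proteins, by 0.20 and 0.24 on the log2 scale.

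Genes known as AP-1 targets moved in both directions. Of 28 such targets, 25 were in the table and 18 tested, with 9 called higher and 4 lower at 12 h (29.1% and 31.0% of all genes tested) and 11 higher and 3 lower at 24 h (33.0% and 31.7% of all), and list medians of 0.25 and 0.32. AREG, an EGF receptor ligand, rose from 1.09 ± 0.10 to 5.56 ± 0.76 and 8.03 ± 0.39 FPKM. VEGFA, which drives vessel growth, rose from 23.3 ± 0.76 to 76.0 ± 1.4 and 76.6 ± 2.5 FPKM. The chemokine CXCL8 rose from 2.03 ± 0.46 to 4.86 ± 0.70 and 5.35 ± 0.63. The targets called lower included CCND1 and HMOX1, at -0.24 and -0.26 at 12 h and -0.44 and -0.82 at 24 h (named after their values were seen). CD44 and VIM averaged at most 0.00522 FPKM in any group.

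Of 12 tested immediate early genes outside AP-1, 10 were called higher and 1 lower at 12 h, against 29.1% and 31.0% of all genes tested, and 11 higher and 1 lower at 24 h, against 33.0% and 31.7%, with list medians of 0.85 and 1.03. EGR1 and NR4A1 passed the filter only through the deprived libraries, and without them 8 of 10 were called higher at 12 h and 9 of 10 at 24 h. EGR1, a zinc finger factor often induced together with FOS, rose from 0.435 ± 0.031 to 13.0 ± 0.50 and 19.8 ± 1.9 FPKM. IER3 rose from 35.9 ± 2.0 to 149 ± 6.7 and 163 ± 1.4 FPKM and IER2 from 11.5 ± 0.52 to 39.4 ± 1.1 and 52.3 ± 1.6. The nuclear receptor NR4A1 rose from 0.352 ± 0.040 to 1.01 ± 0.096 and 1.01 ± 0.098 FPKM. BTG2, an inhibitor of cell division, was the gene called lower, by -0.60 and -0.61 (named after its values were seen). From 12 h to 24 h 6 of these 12 were called higher and 1 lower, against 9.57% and 10.5% of all genes tested. Of the 6 tested AP-1 genes 1 was called higher and 0 lower, and the difference between these lists was not tested.

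**Figure D5:**
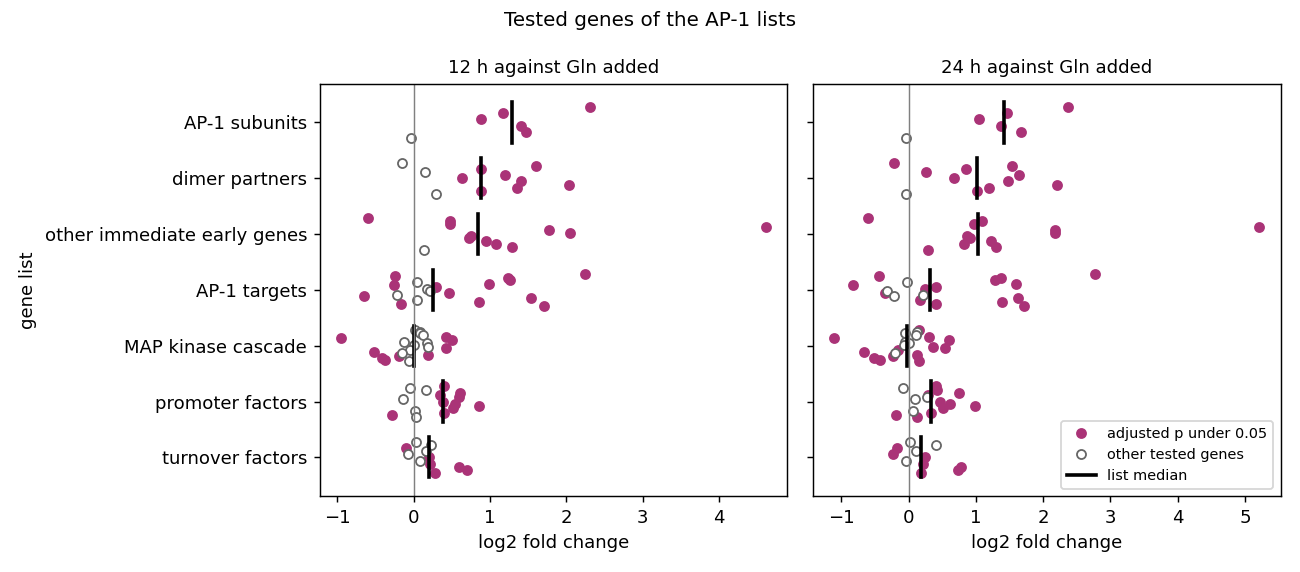
Log2 fold change at 12 h and 24 h for every tested gene of the AP-1 lists, with filled points at an adjusted p under 0.05 and a bar at the list median. The medians of the AP-1 subunits (1.29 and 1.41, or 1.17 and 1.37 without FOS), their dimer partners (0.88 and 1.02) and other immediate early genes (0.85 and 1.03) lie to the right of 0, and that of the MAP kinase cascade lies at 0.007 and -0.022.

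The genes most like each called subunit were taken by Pearson's r over the 9 libraries among 7292 other genes averaging 5 FPKM or more. TRIB3, the pseudokinase at the center of the study, had the highest r with JUN (0.9993), ahead of TNRC18 and MARS1 (both 0.9989). TRIB3 measured 62.9 to 65.9 FPKM with Gln, 246 to 272 FPKM after 12 h and 242 to 262 FPKM after 24 h, a log2 fold change of 2.02 ± 0.045 and 1.96 ± 0.045 (SE, limma adjusted p = 1.73e-10 and 1.86e-10). The difference of TRIB3 between the times was -0.061 (adjusted p = 0.377). For FOSL2 the closest were OGT (0.9991), IGFBP1 (0.9984) and TSG101 (0.9982). For JUNB they were AQP3 (0.9977), SDC4 (0.9967) and KDM4A (0.9966), for FOSL1 TLE4 (0.9961), PLCD3 (0.9959) and FOXP4 (0.9951), and SLC7A2 (0.9948) was among the 3 closest to FOS. Such values are common, because the 9 points fall into the same 3 groups for every gene: 847 genes had an r above 0.95 with JUN and 681 with FOSL1. A high r also says nothing of size, since TLE4 rose by 0.36 where FOSL1 rose by 1.17 on the log2 scale at 12 h.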

How the data were processed

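RNA of 9 HepG2 libraries in 3 groups was analysed. According to the methods, the authors aligned reads to GRCh38 with STAR and tested with DESeq2, and the submitters' processing notes name HTSeq and R 3.2.0; the annotation used for counting is not given in the sources used here. The labels name another library kit than the methods, which call the libraries strand-specific. The authors deposited FPKM per gene, with no further scaling stated.

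Since FPKM are not counts, genes were tested with limma (version 3.58.1, R 4.3.3): lmFit and trended eBayes on log2(FPKM + 0.1), keeping genes that averaged 0.5 FPKM or more over the libraries, all 3 groups fitted together, p-values adjusted by Benjamini-Hochberg over every gene tested. Whole fragments were solved from the FPKM steps for 100% of the 22587 genes (each value within 0.0001 of a whole number or its rounding error). The limma fit was also run on simulated data with fewer changed genes than were called here and the same spread setting for every gene. The recovery was also run on fragments simulated from its own solution. Neither run is used as support here. All replicate pairs differed by more than sampling noise.

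The 7 genes and all lists were chosen with earlier results of these data known. The text names the 7 genes, TRIB3, up to 4 genes per list with the largest mean change among those called at both times, and the 3 genes most like each called subunit. Some genes that this rule selects are not reported here. Positions come from GENCODE v44, promoters from RefSeq. Alternatives were other pseudocounts, filters and scalings, only the groups compared, a replicate block, eBayes without a trend, voom and each library left out. An unfiltered voom fit was chosen after seeing the data. Figures were drawn with matplotlib in Python.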

Additional observations from a re-analysis of the deposited data

Results flagged for a closer look

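The changes at 12 h and at 24 h differed, by limma's contrast of 24 h against 12 h at an adjusted p under 0.05, for 1 of the 6 tested subunits and for 11 of the other genes named. Of all genes tested, 9.57% were called higher and 10.5% lower in this contrast. CCND1 and HMOX1 were named after their values were seen, and the count of 11 is not a share of a fixed list. FOSL1 was 0.30 higher at 24 h on the log2 scale (adjusted p = 0.0481). Among immediate early genes, EGR1 was 0.60 higher (adjusted p = 0.000363) and IER2 0.41 higher (adjusted p = 0.000137) at 24 h. Among AP-1 targets, AREG was 0.53 higher (adjusted p = 0.00413), whereas the difference was -0.56 for HMOX1 (adjusted p = 6.01e-05) and -0.19 for CCND1 (adjusted p = 0.00134). Of the genes most like a subunit, IGFBP1 was 0.47 higher (adjusted p = 2.15e-05), AQP3 0.32 (adjusted p = 0.014), PLCD3 0.24 (adjusted p = 0.0121) and OGT 0.14 (adjusted p = 0.0203). The fibrinogen chain FGA, a hepatocyte marker, was 0.11 higher (adjusted p = 0.0229), and the difference for CD68 was -0.37 (adjusted p = 0.00361).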

How the results depend on the processing

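The counts of 5 subunits higher at 12 h and at 24 h stayed at 5 in all fits that left out a library, with the replicate block and in every other alternative with the 6 tested genes, and were 6 with FOSB in both unfiltered fits. These counts include FOS, which passed the filter only through the deprived libraries. Without FOS, the main fit called 4 of 5 genes higher at each time, against 29.1% and 33.0% of all genes tested. The count of 1 subunit between 24 h and 12 h was not stable. It was 2 with a pseudocount of 1, with FPKM rescaled to the same total and with voom (with or without the filter), it was 0 with no filter, with median-ratio scaling and with only the groups compared, and it ranged from 0 to 2 when 1 library was left out. With eBayes without a trend it was 1, but the gene was FOSL2 (adjusted p = 0.0222) and not FOSL1 (0.0823). FOSL1 lost its call (adjusted p = 0.0553 to 0.146) without replicate 1 or 2 of Gln added, replicate 1 or 3 of 12 h, or replicate 1 or 2 of 24 h. JUNB gained one (adjusted p = 0.0423) without replicate 2 of 12 h. Same-numbered libraries deviated together (r over 0.1) in 5 of 9 pairs (r from -0.107 to 0.499). Between 12 h and 24 h, r was 0.499, -0.088 and 0.492 for replicates 1, 2 and 3. Whether the numbers pair the samples is not settled by these values. With the replicate block, counts were 5, 5 and 1. Values near 0 changed sign. JUND at 24 h became 0.0072 after rescaling to the same total, and between the times -0.0128 with median-ratio scaling. With 1 library left out, JUND spanned -0.0669 to 0.0043 (12 h), -0.0831 to 0.030 (24 h) and -0.0445 to 0.0718 (between the times), and FOS spanned -0.0234 to 0.1506 between the times. The cause was not tested. FOS moved most with the scale, being 1.03 at 12 h with a pseudocount of 1 and 2.72 by voom. Of 720 list counts recomputed, 44 moved, that is, by more than 1.5 times or from or to 0. Depth limits FOS and FOSB, at 8 to 19 fragments with Gln added.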
